A study of Rattus norvegicus with 16 samples.

Results

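The genes described here make cholesterol, sense it, carry it and esterify it. They are 30 genes named by function, from the thiolase and synthase steps that open the mevalonate pathway to the enzymes that finish the sterol ring, together with the sterol sensors of the endoplasmic reticulum and the proteins that move or esterify cholesterol. All 30 had a probe on the array, and 29 of them were among the 21457 genes tested. The exception was Soat1, a cholesterol esterifying enzyme known mainly from macrophages and the adrenal, whose probe lay well above background on 1 of 16 arrays.

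Liver messenger RNA of male Lewis rats was measured at 5 ages, on 3 arrays each at 3, 9, 12 and 18 months and on 4 arrays at 24 months. Lewis is an inbred strain. Housing was free of specific pathogens, light and dark alternated and food was unrestricted. No treatment or genetic change is named for any age. The sample names number the 12-month arrays 2, 3 and 4 and the 18-month arrays 1, 3 and 4. A scan session below means the arrays whose scan dates fall in the same year, so it can span several scan days. Whether each sample was a separate rat is not stated, so the p-values measure the spread between these samples only. Every value below is a level on the log2 scale: the signal of a probe relative to the 75th percentile of its array, so that a difference of 1 is a doubling. Levels of different genes come from different probes and are not compared with each other. In whole liver, fewer cells of a type and less RNA per cell cannot be told apart.

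Cholesterol is built from acetyl-CoA. Condensation and reduction give mevalonate, which is phosphorylated and decarboxylated to isoprenoid units. These are joined to farnesyl diphosphate and then to squalene, which is closed to lanosterol and trimmed to cholesterol. When membrane cholesterol is low, SCAP escorts the transcription factor SREBP-2 (gene Srebf2) from the endoplasmic reticulum to the Golgi for cleavage, and the released factor raises transcription of most of these enzymes. When sterol is plentiful, INSIG proteins hold SCAP back. The liver is a main site of both synthesis and uptake, so the pathway's transcripts are commonly read together.

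Of the 29 genes, 13 (44.8%) passed the test for any difference among the 5 ages, against 37.4% of all genes tested, so the share was close to that of the whole array. They were Acat2, Pmvk, Fdps, Ggps1, Lss, Cyp51, Tm7sf2, Nsdhl, Hsd17b7, Sc5d, Dhcr7, Insig2 and Npc1. The test is limma's F test with Benjamini-Hochberg adjustment over all genes and a threshold of 0.05. The genes that passed traced a common outline, with the highest mean at 9 or 24 months and the lowest at 12 or 18 months, in all but Ggps1, Insig2 and Npc1. Among all 29, 12 had their highest mean at 9 months and 10 at 24 months, where 22.7% and 17.4% of all genes had theirs. The lowest mean lay at 18 months for 14 genes and at 12 months for 10, against 29.4% and 14.1% of all genes.

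**Figure D1:**
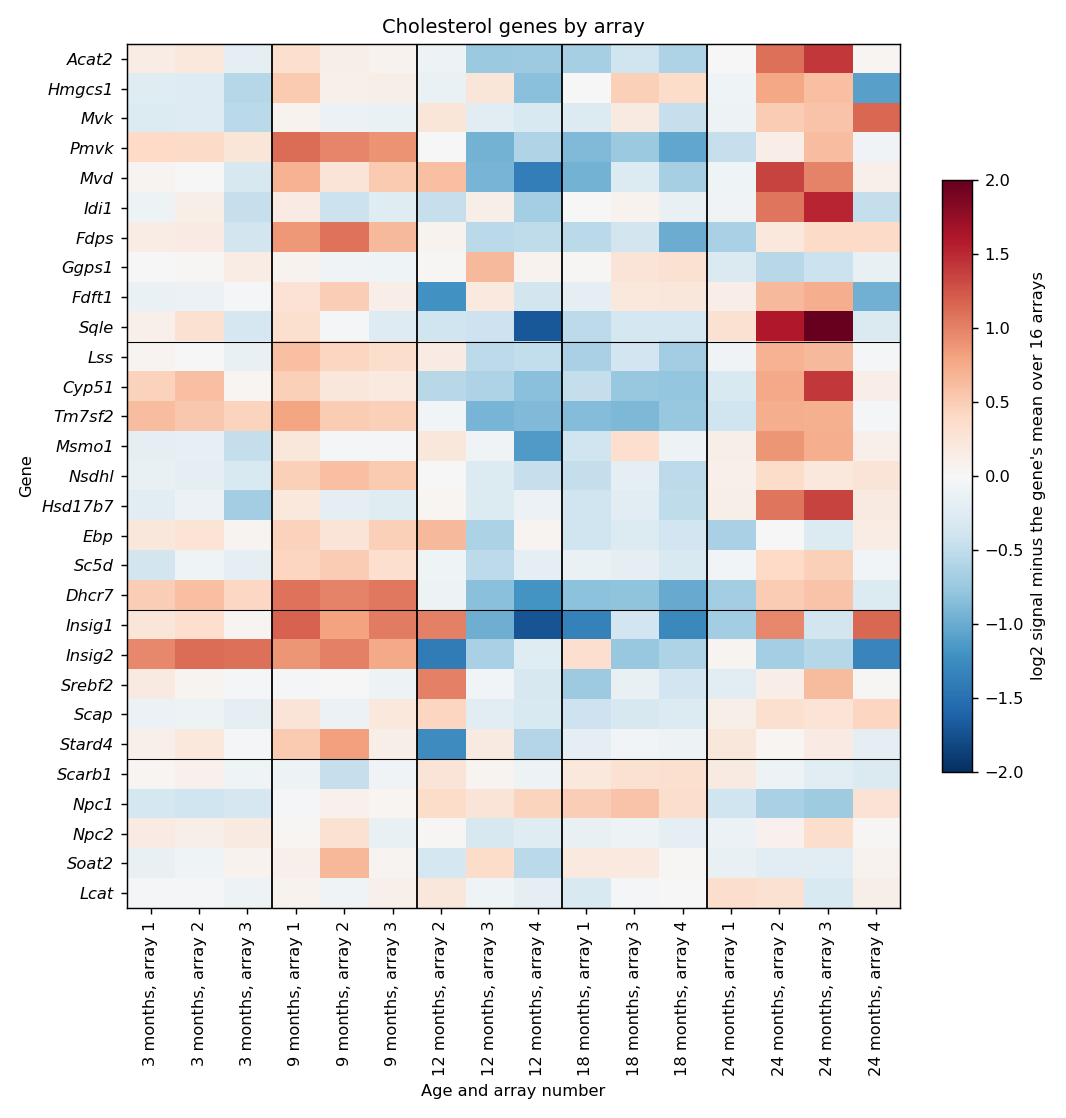
Log2 signal of the 29 genes (rows, in pathway order) on the 16 arrays (columns, by age), each gene centred on its own mean, with red above and blue below it. Most enzyme rows are red at 9 months, blue on 12-month arrays 3 and 4 and at 18 months, and red again on 24-month arrays 2 and 3.

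The clearest falls lay between 9 and 12 months. Of the 29 genes, 8 (27.6%) were lower at 12 months than at 9, against 3.1% of all genes tested. They were the enzymes Pmvk, Fdps, Tm7sf2, Nsdhl, Sc5d and Dhcr7, the sterol sensor Insig2 and the sterol carrier Stard4. None was called higher (limma; 0 also at an unadjusted p below 0.05), against 3.17% of all genes, and 25 of 29 had a lower mean. The median difference was -0.69 for the 29 genes and -0.01 for all genes. Without 12-month array 2, 3 or 4 the count was 10 (34.5%), 6 (20.7%) and 4 (13.8%). The shares of all genes called lower were then 5.49%, 3.25% and 1.8%. Without array 2 no 12-month array shared a slide, scan day or session with a 9-month array. Without 9-month array 1, 2 or 3 the count was 3 (10.3%), 3 (10.3%) and 4 (13.8%). The shares of all genes called lower were then 0.983%, 1.28% and 1.14%. Within slide 2, which held 12-month array 2 with 9-month arrays 1 and 3, 4 of the 29 (13.8%) were lower, Fdft1, Dhcr7, Insig2 and Stard4, against 6.9% of all genes, and Srebf2 was higher. Within scan session 1, which held the same 12-month array and all 9-month arrays, 5 (17.2%) were lower, those 4 and Pmvk, against 6.06% of all genes, and Srebf2 was again higher. The excess over all genes was thus smaller within a batch than over all arrays, and the lone 12-month array is there assumed to vary like the other arrays. With slide as a random block 7 of the 29 (24.1%) were lower, against 11.4% of all genes. With scan session as a block 5 (17.2%) were lower, against 9.84%. Srebf2 was called higher with either block, when 11% and 10.5% of all genes were. With normexp background correction 5 of the 29 (17.2%) were lower, against 0.475% of all genes. These were Pmvk, Fdps, Tm7sf2 and Dhcr7, with Cyp51 added, while Nsdhl, Sc5d, Insig2 and Stard4 were lost.

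Between 18 and 24 months the direction was the opposite. Of the 29 genes, 11 (37.9%) rose, against 10.8% of all genes tested: Acat2, Mvk, Pmvk, Mvd, Lss, Cyp51, Tm7sf2, Nsdhl, Hsd17b7, Dhcr7 and Scap. The isoprenoid enzyme Ggps1 and the lysosomal cholesterol exporter Npc1 fell, 2 of 29 (6.9%), against 15% of all genes. The median difference was 0.56 for the 29 genes and 0.05 for all genes. Samples of 18 and 24 months shared no slide, scan day or scan session, so age and array batch cannot be told apart in this step. With slide as a random block none of the 29 passed, against 0.28% of all genes higher and 4.26% lower. With scan session as a block, which rests on the split of the 12-month arrays between sessions, none of these 13 calls was kept. Stard4 alone was then called (higher), against 5.03% of all genes. With normexp background correction 4 of the 13 calls were kept, those of Acat2, Cyp51, Hsd17b7 and Npc1, when 1.63% of all genes were called higher and 2.9% lower.

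The other steps were quieter. At 9 months against 3 months, Nsdhl and Sc5d rose, 2 of 29 (6.9%), against 1.94% of all genes, and none fell (limma; 0 also at an unadjusted p below 0.05), against 3.2% of all genes. Nsdhl passed again without any single array of either age, and Sc5d lost its call when any one of the 6 was left out (adjusted p from 0.084 without 3-month array 2 to 0.172 without 3-month array 1). At 18 months against 12 months none of the 29 passed in either direction, against 1.07% of all genes higher and 0.322% lower. At an unadjusted p below 0.05 there was 1, Srebf2, which was lower at 18 months (limma), while a second, dimmer probe of Srebf2 had a difference of 0.31 in the other direction. Across the whole span, 24 against 3 months, Mvk, Nsdhl and Hsd17b7 rose, 3 of 29 (10.3%), against 4.24% of all genes, and Insig2 fell, 1 of 29 (3.45%), against 9.08%. That total of 4 was 1 without 3-month array 1 or 3, 1 without 24-month array 2, and 2 without 3-month array 2. Without a 3-month array, 1.74% to 1.93% of all genes were called higher and 5.57% to 5.96% lower. Without 24-month array 2 these shares were 3.34% and 8.2%. The 3-month and 24-month arrays shared scan session 1 but no slide and no scan day, so age cannot be told apart from slide and day here either. In a fit on these arrays alone, or with normexp, Insig2 was the one call left, and with slide as a random block there was none. The median difference between 24 and 3 months was 0.13 for the 29 genes and -0.04 for all genes.

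**Figure D2:**
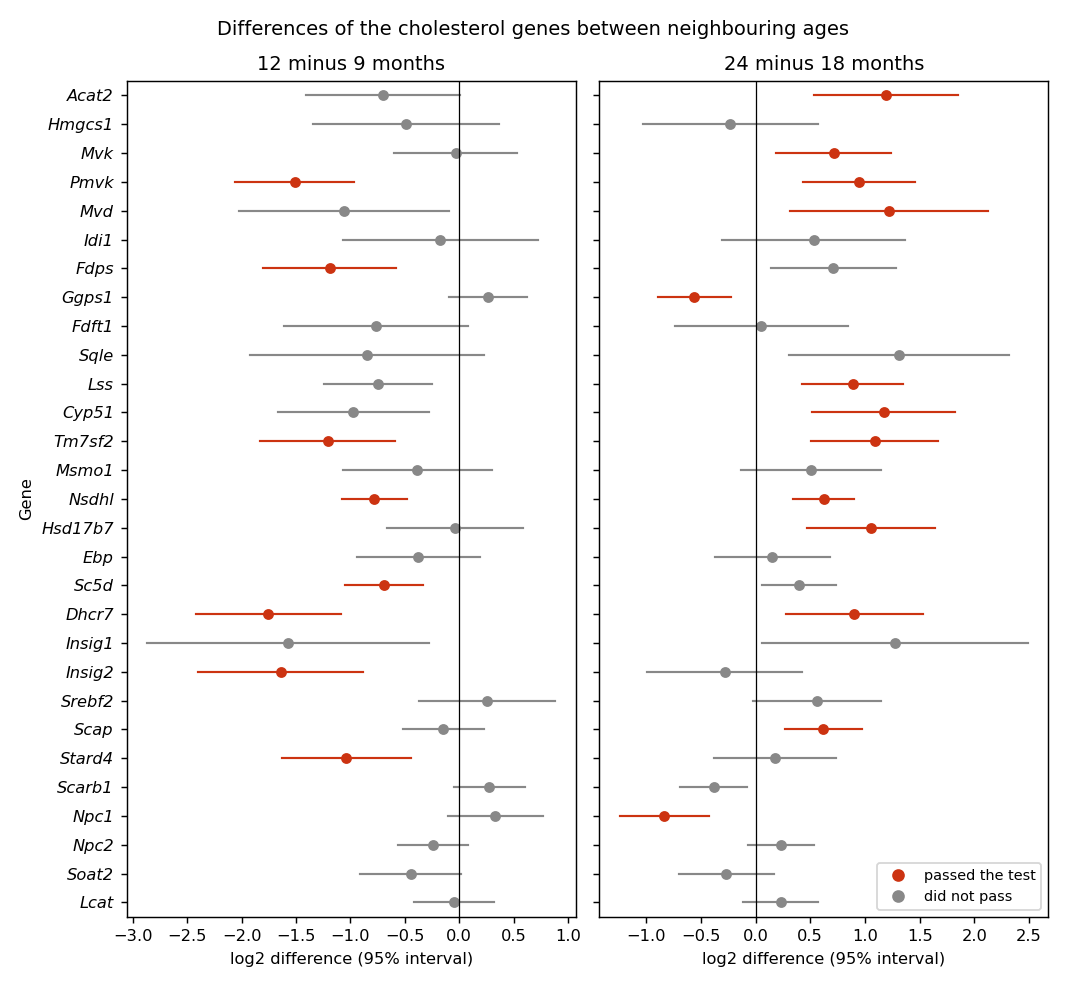
Log2 difference of each gene between neighbouring ages with its 95% interval, 12 minus 9 months on the left and 24 minus 18 months on the right. Red marks the 8 and 13 genes that passed the test, and nearly all enzyme points lie left of zero in the first panel and right of it in the second.

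Nsdhl, Mvk and Hsd17b7 were the genes called higher at 24 months than at 3 months, and their promoters are shown for that reason. The windows run from 250 bases before to 50 bases after the annotated start, from RefSeq on build GRCr8, 5′ to 3′ on the gene's strand. Capitals mark the CCAAT box on either strand (ATTGG is its reverse), a site of the factor NF-Y, which is known to bind beside SREBP in promoters of this pathway. The windows are chrX:155817110-155817409 on the plus strand for Nsdhl, chr12:47819454-47819753 on the minus strand for Mvk and chr13:84722705-84723004 on the minus strand for Hsd17b7.
Nsdhl: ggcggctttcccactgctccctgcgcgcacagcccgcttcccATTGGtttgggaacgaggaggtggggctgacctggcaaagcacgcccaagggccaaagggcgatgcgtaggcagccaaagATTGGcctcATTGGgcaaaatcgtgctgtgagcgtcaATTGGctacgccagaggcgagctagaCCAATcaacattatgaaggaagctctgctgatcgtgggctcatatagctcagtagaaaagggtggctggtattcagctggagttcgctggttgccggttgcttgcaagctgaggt
Mvk: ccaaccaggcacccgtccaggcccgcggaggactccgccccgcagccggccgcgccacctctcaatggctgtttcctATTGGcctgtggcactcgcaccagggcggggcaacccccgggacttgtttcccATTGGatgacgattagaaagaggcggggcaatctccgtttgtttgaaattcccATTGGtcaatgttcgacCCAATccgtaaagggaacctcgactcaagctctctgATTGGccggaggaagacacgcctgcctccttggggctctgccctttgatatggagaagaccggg
Hsd17b7: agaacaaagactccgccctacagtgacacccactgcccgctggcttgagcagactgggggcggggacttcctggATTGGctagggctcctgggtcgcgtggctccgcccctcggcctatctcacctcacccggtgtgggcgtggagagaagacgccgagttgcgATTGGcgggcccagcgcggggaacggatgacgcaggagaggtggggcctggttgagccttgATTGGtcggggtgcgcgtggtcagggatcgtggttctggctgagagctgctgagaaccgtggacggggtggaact
The Nsdhl and Mvk windows hold 5 such boxes each and the Hsd17b7 window 3. A window was found for 24 of the 30 genes, and 19 of the 24 (79.2%) held at least 1 CCAAT box, against 38.3% of the promoters of genes tested on the array and 37.7% of all 27457 promoters in the table. The GC box GGGCGG, a site of Sp1, was found in 79.2% of the 24 windows, against 59.6% of tested genes and 34.9% of all promoters. The sterol regulatory element core TCACNCCAC was found in 0 of the 24 windows and in 1.13% of all promoters, which says only that these letters are not in these windows. Both strands were searched, and no match was tested as a site. Matches overlapped in 1 of the 24 windows, that of Dhcr7, where both were GC boxes.

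Acat2, the cytosolic thiolase that joins acetyl-CoA units at the entry of the pathway, had 4.10, 4.16 and 3.76 at 3 months, 4.29, 4.07 and 4.02 at 9 months, 3.85, 3.20 and 3.22 at 12 months, 3.29, 3.55 and 3.34 at 18 months, and 3.94, 5.05, 5.37 and 3.99 at 24 months. The array's own annotation names this probe Acat3, and its accession leads to Acat2. All 4 values at 24 months lay above all 3 at 18 months, with arrays 2 and 3 highest. The difference of 24 minus 18 months was 1.19 ± 0.31 (SE, adjusted p = 0.0112, limma). Hmgcs1, the synthase of the next step, ranged from 4.28 to 6.15 and passed no test; its lowest and highest values both came from 24-month arrays.

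Mvk phosphorylates mevalonate. Its level was 1.07, 1.09 and 0.80 at 3 months, 1.42, 1.22 and 1.21 at 9 months, 1.59, 1.13 and 1.04 at 12 months, 1.07, 1.53 and 0.89 at 18 months, and 1.24, 1.86, 1.91 and 2.49 at 24 months. Every 24-month value lay above every 3-month value, with a mean of 1.88 ± 0.51 (SD, n = 4) at 24 months and 0.98 ± 0.16 (n = 3) at 3 months. The difference was 0.89 ± 0.25 (SE, adjusted p = 0.0288, limma), but the call was lost when any one of the 3-month arrays was left out (adjusted p up to 0.116) or without 24-month array 2 (0.0521). Against 18 months the values overlapped, and the difference of 0.71 ± 0.25 (SE, adjusted p = 0.0473, limma) did not pass without 18-month array 1 or 4 or without 24-month array 2, 3 or 4 (up to 0.173).

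Pmvk, which adds the second phosphate, showed the fall and the return most plainly among the early enzymes. It had 3.39, 3.38 and 3.23 at 3 months, 4.11, 3.96 and 3.89 at 9 months, 3.00, 2.04 and 2.39 at 12 months, 2.11, 2.24 and 1.94 at 18 months, and 2.52, 3.12, 3.60 and 2.92 at 24 months. No 12-month value reached the 9-month range, and no 18-month value reached the 24-month range. The difference of 12 minus 9 months was -1.51 ± 0.25 (SE, adjusted p = 0.0059, limma), and that of 24 minus 18 months was 0.95 ± 0.24 (SE, adjusted p = 0.00981). Both calls held without any single array of the ages compared. Within slide 2, which held 12-month array 2 and 9-month arrays 1 and 3, the difference of 12 minus 9 months was -1.0 (adjusted p = 0.0502).

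Mvd, which decarboxylates the product, had 2.10, 2.05 and 1.73 at 3 months, 2.74, 2.31 and 2.58 at 9 months, 2.65, 1.13 and 0.67 at 12 months, 1.11, 1.78 and 1.38 at 18 months, and 1.97, 3.4, 3.05 and 2.16 at 24 months. The 12-month arrays were split, with array 2 within the 9-month range and arrays 3 and 4 below it. The rise of 24 over 18 months (1.22 ± 0.42, SE, adjusted p = 0.0471, limma) was lost when any one of the 18-month arrays or 24-month array 2 or 3 was left out (0.0638 to 0.153), and its sign turned with scan session as a block (-0.53). Idi1, the isomerase of the isoprenoid unit, passed no test. It ranged from 2.98 to 3.83 up to 18 months, while 24-month arrays 2 and 3 had 4.75 and 5.19 and arrays 1 and 4 had 3.60 and 3.19.

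Fdps joins the units to farnesyl diphosphate. It had 6.07, 6.09 and 5.55 at 3 months, 6.78, 7.01 and 6.57 at 9 months, 5.99, 5.39 and 5.42 at 12 months, 5.39, 5.56 and 4.93 at 18 months, and 5.27, 6.14, 6.31 and 6.31 at 24 months. The 9-month arrays lay above every other array in the series. The difference of 12 minus 9 months was -1.19 ± 0.28 (SE, adjusted p = 0.0269, limma), and the call was lost when any one of the 9-month arrays or 12-month array 3 or 4 was left out (0.0548 to 0.0982). At 24 against 18 months the difference was 0.71 ± 0.26 (SE, adjusted p = 0.063).

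Ggps1 leads away from sterols, making geranylgeranyl diphosphate for protein prenylation. It had -1.54, -1.52 and -1.40 at 3 months, -1.47, -1.61 and -1.63 at 9 months, -1.53, -0.90 and -1.48 at 12 months, -1.52, -1.29 and -1.24 at 18 months, and -1.84, -2.10, -1.98 and -1.70 at 24 months. All 4 values at 24 months were the lowest of the series. The difference of 24 minus 18 months was -0.56 ± 0.16 (SE, adjusted p = 0.0173, limma), and it did not pass without 18-month array 3 (0.0646) or array 4 (0.0725). With normexp background correction the difference was -0.12 (adjusted p = 0.78).

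Fdft1, the squalene synthase, and Sqle, the epoxidase that prepares squalene for ring closure, passed no test over all arrays. Fdft1 ranged from 0.20 on 12-month array 2 to 2.13 on 24-month array 3. Sqle had 2.73, 2.93 and 2.29 at 3 months, 2.95, 2.59 and 2.37 at 9 months, 2.22, 2.20 and 0.93 at 12 months, 2.10, 2.27 and 2.27 at 18 months, and 2.93, 4.23, 4.62 and 2.34 at 24 months. Its 24-month values all lay above the 18-month values, by a mean of 1.31 (95% interval 0.31 to 2.32, adjusted p = 0.0536, limma).

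Lss closes the ring to lanosterol. It had 1.34, 1.30 and 1.13 at 3 months, 1.89, 1.72 and 1.63 at 9 months, 1.45, 0.76 and 0.80 at 12 months, 0.64, 0.90 and 0.59 at 18 months, and 1.21, 1.98, 1.93 and 1.26 at 24 months. The 18-month and 24-month values did not overlap. At 24 against 18 months the difference was 0.89 ± 0.22 (SE, adjusted p = 0.00828, limma), and the gene passed without any single array of those ages.

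Cyp51, the lanosterol demethylase, had 3.98, 4.11 and 3.56 at 3 months, 3.99, 3.74 and 3.71 at 9 months, 2.96, 2.89 and 2.67 at 12 months, 3.03, 2.76 and 2.75 at 18 months, and 3.22, 4.27, 4.93 and 3.65 at 24 months. The 12-month and 18-month arrays formed a low set that overlapped no other age. Its difference of 24 minus 18 months was 1.17 ± 0.30 (SE, adjusted p = 0.0117, limma) and held without any single array, while that of 12 minus 9 months was -0.97 ± 0.32 (SE, adjusted p = 0.0932).

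Tm7sf2, a sterol reductase of the next step, had 6.88, 6.81 and 6.72 at 3 months, 7.05, 6.77 and 6.74 at 9 months, 6.21, 5.34 and 5.37 at 12 months, 5.40, 5.37 and 5.51 at 18 months, and 5.86, 7.0, 6.98 and 6.23 at 24 months. The 3-month and 9-month arrays overlapped, and all 12-month and 18-month arrays lay below them. The difference of 12 minus 9 months was -1.21 ± 0.29 (SE, adjusted p = 0.0268, limma), lost when any one 9-month array or 12-month array 3 or 4 was left out (0.0642 to 0.0933). The difference of 24 minus 18 months was 1.09 ± 0.27 (SE, adjusted p = 0.00881) and held without any single array.

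**Figure D3:**
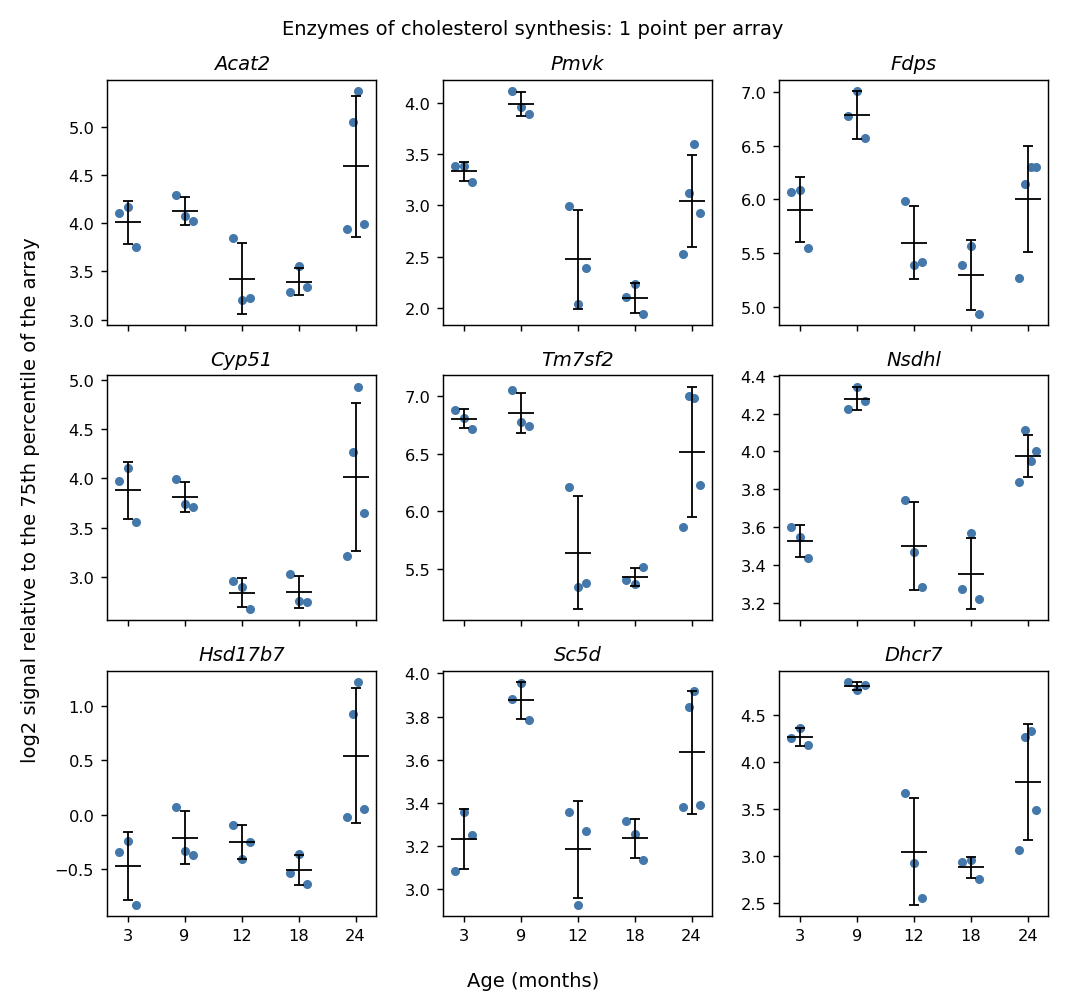
Log2 signal relative to the array's 75th percentile by age (months) for 9 enzymes, 1 point per array, with the mean as a line and SD bars (n = 4 at 24 months, n = 3 at the other ages). In Pmvk, Tm7sf2 and Dhcr7 the 12-month and 18-month points lie below all 9-month points, and the 24-month points are spread widely.

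Nsdhl, a dehydrogenase that removes the methyl groups at the fourth ring carbon together with Msmo1, was the only one of the 29 to pass 4 of the 5 comparisons. It had 3.60, 3.55 and 3.44 at 3 months, 4.22, 4.34 and 4.27 at 9 months, 3.74, 3.47 and 3.28 at 12 months, 3.27, 3.57 and 3.22 at 18 months, and 3.84, 4.11, 3.95 and 4.0 at 24 months. Its values kept close within each age, and the 4 arrays of 24 months did not split. It rose at 9 against 3 months by 0.75 ± 0.14 (SE, adjusted p = 0.00739, limma) and fell by -0.78 ± 0.14 at 12 against 9 months (adjusted p = 0.0076). It rose again by 0.62 ± 0.13 at 24 against 18 months (adjusted p = 0.00319), the smallest adjusted p among the 29 in that step. These 3 calls held without any single array but were lost with normexp background correction (adjusted p = 0.403, 0.182 and 0.462). The difference of 24 minus 18 months was then 0.31. The call for 12 against 9 months was also lost within slide 2 and within scan session 1. There 12-month array 2 was the lone array of its age. The call for 24 against 18 months was also lost with slide or session as a block. The difference of 24 minus 3 months, 0.45 ± 0.13 (SE, adjusted p = 0.0368), was lost when any one 3-month array or 24-month array 2 or 4 was left out (up to 0.143), and with normexp it was 0.15 (adjusted p = 0.732).

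Msmo1, the oxidase of the same demethylation, passed no test and ranged from 5.90 on 12-month array 4 to 7.91 on 24-month array 2. Hsd17b7, the ketosteroid reductase of that complex, had -0.34, -0.25 and -0.83 at 3 months, 0.07, -0.33 and -0.37 at 9 months, -0.09, -0.41 and -0.25 at 12 months, -0.53, -0.36 and -0.64 at 18 months, and -0.02, 0.93, 1.22 and 0.05 at 24 months. Its 24-month values lay above all 3-month and 18-month values, with arrays 2 and 3 apart from arrays 1 and 4. The difference of 24 minus 3 months was 1.02 ± 0.27 (SE, adjusted p = 0.0251, limma), lost without 3-month array 1 (0.0602), 3-month array 3 (0.121) or 24-month array 2 (0.0654). At 24 against 18 months the difference was 1.05 ± 0.27 (SE, adjusted p = 0.0116) and held without any single array. A second probe of Hsd17b7 gave 0.85 for 24 minus 3 months, which did not pass (limma, adjusted p over probes = 0.0789). For 24 minus 18 months it gave 0.91 (0.0382), and its F test did not pass (0.101).

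Ebp, the sterol isomerase, passed no test and ranged from 6.46 to 7.75. Sc5d, a desaturase near the end of the pathway, had 3.08, 3.36 and 3.25 at 3 months, 3.88, 3.96 and 3.79 at 9 months, 3.36, 2.93 and 3.27 at 12 months, 3.31, 3.25 and 3.14 at 18 months, and 3.38, 3.84, 3.92 and 3.39 at 24 months. The 9-month arrays lay above all 3-month and 12-month arrays. The difference of 9 minus 3 months was 0.64 ± 0.17 (SE, adjusted p = 0.0413, limma), and that of 12 minus 9 months was -0.69 ± 0.17 (SE, adjusted p = 0.0299). The call for 12 against 9 months was lost when any one 9-month array or 12-month array 3 or 4 was left out (0.0563 to 0.0982).

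Dhcr7, the reductase that yields cholesterol in the last step, had the largest fall of the 29 between 9 and 12 months. It had 4.25, 4.36 and 4.17 at 3 months, 4.84, 4.76 and 4.81 at 9 months, 3.67, 2.93 and 2.56 at 12 months, 2.94, 2.96 and 2.76 at 18 months, and 3.06, 4.26, 4.33 and 3.49 at 24 months. The difference of 12 minus 9 months was -1.75 ± 0.31 (SE, adjusted p = 0.00728, limma), which is a level 3.37 times as high at 9 months. It held without any single array and was not called with scan session as a block (limma, adjusted p = 0.0528). Within slide 2, with 12-month array 2 alone, the difference was -1.16. The difference of 24 minus 18 months was 0.90 ± 0.29 (SE, adjusted p = 0.0354), lost when any one 18-month array or 24-month array 2 or 3 was left out (0.0772 to 0.109), and with scan session as a block it was -0.02.

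Among the sterol sensors, Insig2 behaved unlike the enzymes. It had 4.73, 4.88 and 4.86 at 3 months, 4.64, 4.77 and 4.51 at 9 months, 2.37, 3.12 and 3.51 at 12 months, 4.09, 3.00 and 3.15 at 18 months, and 3.82, 3.08, 3.19 and 2.44 at 24 months. All arrays of 3 and 9 months lay above all arrays of 12, 18 and 24 months. The mean was 3.13 ± 0.56 (SD, n = 4) at 24 months and 4.82 ± 0.08 (n = 3) at 3 months, a difference of -1.69 ± 0.33 (SE, adjusted p = 0.00409, limma). It held without any single array, the difference then being -1.92 to -1.46, and was not called with slide as a random block (-1.84, adjusted p = 0.118). The drop lay between 9 and 12 months, with a difference of -1.64 ± 0.35 (SE, adjusted p = 0.017), lost without 9-month array 1 (0.058) or array 2 (0.0617). That call was also lost with normexp background correction and with replicate number as a block (limma, adjusted p up to 0.077). Within slide 2 this difference was -2.21 (adjusted p = 0.0435). A second probe of Insig2 gave -1.67 for 24 minus 3 months (adjusted p over probes = 0.00562) and -1.52 for 12 minus 9 months (0.0267).

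The step in Insig2 coincided with a step in genes of the circadian clock, and the hour of tissue collection is not stated. Dbp, a transcription factor whose liver transcript cycles steeply over the day, had -0.89, -0.73 and -0.14 at 3 months, -0.41, -0.55 and -0.11 at 9 months, 5.50, 5.44 and 5.29 at 12 months, 4.12, 5.08 and 5.05 at 18 months, and 4.87, 3.63, 2.91 and 5.03 at 24 months. Of 15 clock genes tested, 9 rose and 4 fell at 12 against 9 months, against 3.17% and 3.1% of all genes. At 9 against 3 months 0 of the 15 rose and 1 fell, against 1.94% and 3.2% of all genes. In mouse liver Insig2 is known as a target of the clock repressor REV-ERB alpha. The part of these differences in the Insig2 step, and in the falls of the 7 other genes called at 12 against 9 months, was not tested.

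**Figure D4:**
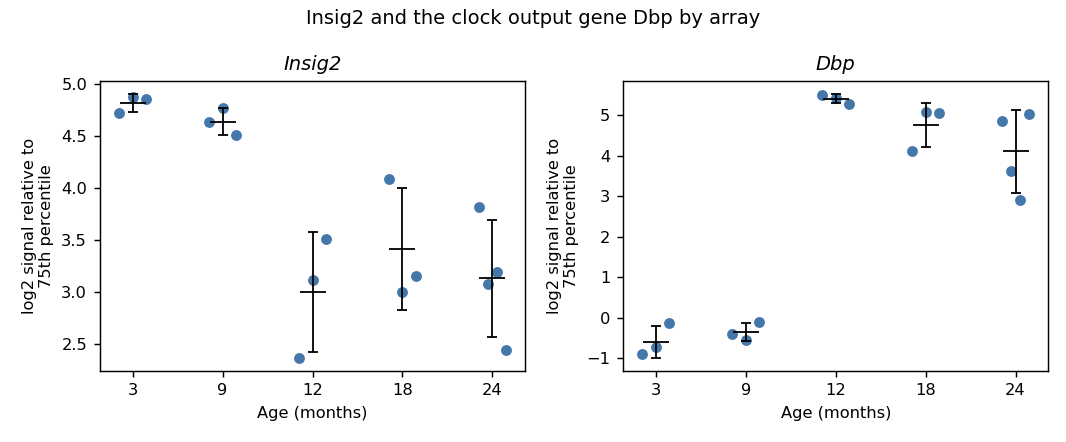
Log2 signal relative to the array's 75th percentile by age (months) for Insig2 on the left and the clock output gene Dbp on the right, 1 point per array, with means and SD bars. Insig2 is high and Dbp low on all 3-month and 9-month arrays, and the reverse holds on all later arrays.

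Insig1, the other INSIG and itself a target of SREBP, had 6.97, 7.06 and 6.77 at 3 months, 7.91, 7.52 and 7.76 at 9 months, 7.73, 5.74 and 5.0 at 12 months, 5.36, 6.34 and 5.43 at 18 months, and 6.02, 7.69, 6.36 and 7.87 at 24 months. It passed no comparison (F test adjusted p = 0.084, limma). The difference of 12 minus 9 months was -1.57 (95% interval -2.87 to -0.28, adjusted p = 0.14) and that of 24 minus 18 months 1.27 (95% interval 0.06 to 2.49, adjusted p = 0.114). On 12-month array 2 it stood at the 9-month level, and on arrays 3 and 4 below every 3-month and 9-month array. Its 4 probes had differences of one sign, -2.02 to -1.57 for 12 minus 9 months, and 1 of them passed the F test over probes (0.0382).

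Srebf2 had -0.50, -0.62 and -0.72 at 3 months, -0.70, -0.66 and -0.78 at 9 months, 0.34, -0.72 and -0.99 at 12 months, -1.39, -0.82 and -1.06 at 18 months, and -0.89, -0.54, -0.04 and -0.65 at 24 months. It passed no test (F test adjusted p = 0.336, limma), and its difference of 12 minus 9 months was 0.26 with a 95% interval of -0.37 to 0.88. Within slide 2 and within scan session 1, where 12-month array 2 was the lone array of its age, it was called higher at 12 than at 9 months. A second probe of Srebf2 was dimmer, above background on 10 of 16 arrays. It differed by -0.10 for 12 minus 9 months and by 0.31 for 18 minus 12 months (limma, adjusted p over probes = 0.841 and 0.469). Both were opposite in sign to the first probe. The array reads the transcript and not the cleavage of the protein. Scap had 3.21, 3.24 and 3.15 at 3 months, 3.59, 3.22 and 3.55 at 9 months, 3.77, 3.13 and 3.03 at 12 months, 2.92, 3.01 and 3.06 at 18 months, and 3.45, 3.66, 3.61 and 3.76 at 24 months. All 24-month values of Scap lay above all 18-month values, by 0.62 ± 0.16 (SE, adjusted p = 0.0127, limma). That call was lost without 18-month array 1 (0.052), the difference was 0.29 with normexp (adjusted p = 0.481), and the sign turned with scan session as a block (-0.06).

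**Figure D5:**
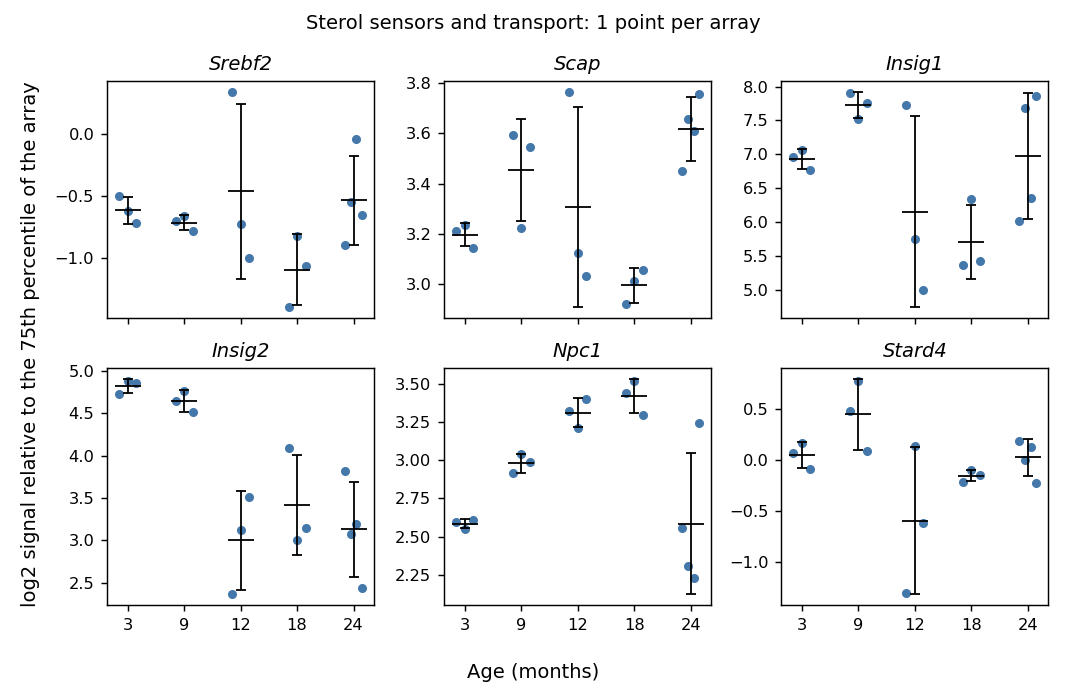
Log2 signal relative to the array's 75th percentile by age (months) for the sterol sensors Srebf2, Scap, Insig1 and Insig2, the lysosomal exporter Npc1 and the sterol carrier Stard4, 1 point per array, with means and SD bars. Npc1 climbs in mean up to 18 months and lies lower on 24-month arrays 1, 2 and 3.

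Npc1, which exports cholesterol taken up with lipoproteins from the lysosome, was lower at 24 than at 18 months, in the step in which many synthesis enzymes rose. It had 2.60, 2.55 and 2.61 at 3 months, 2.91, 3.04 and 2.99 at 9 months, 3.32, 3.21 and 3.4 at 12 months, 3.44, 3.52 and 3.30 at 18 months, and 2.56, 2.31, 2.23 and 3.24 at 24 months. The 3-month, 9-month and 12-month arrays did not overlap one another. At 24 against 18 months the difference was -0.83 ± 0.19 (SE, adjusted p = 0.00562, limma), held without any single array, and was of the same sign in all 5 probes. On 24-month array 4 alone the level lay close to those of 18 months. Its partner Npc2, which hands cholesterol to Npc1, passed no test and ranged from 2.99 to 3.67.

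Stard4, a cytosolic sterol carrier, had 0.07, 0.17 and -0.09 at 3 months, 0.48, 0.77 and 0.08 at 9 months, -1.30, 0.14 and -0.62 at 12 months, -0.21, -0.10 and -0.14 at 18 months, and 0.19, 0.00, 0.13 and -0.22 at 24 months. Its difference of 12 minus 9 months was -1.04 ± 0.28 (SE, adjusted p = 0.0419, limma), although the 12-month and 9-month values overlapped. The call was lost when any one 9-month array or 12-month array 2 or 4 was left out (0.0549 to 0.154). Scarb1, the receptor that takes cholesterol from high-density lipoprotein, passed no test. Its 24-month values (3.68, 3.4, 3.28 and 3.22) all lay below its 18-month values (3.71, 3.80 and 3.83), with a difference of -0.38 (95% interval -0.69 to -0.08, adjusted p = 0.0607). A second probe of Scarb1 differed by 0.20 in that step, in the opposite direction (adjusted p over probes = 0.601). Soat2, the cholesterol esterifying enzyme of hepatocytes, ranged from -0.38 to 0.83 and Lcat, the plasma esterifying enzyme secreted by the liver, from 6.82 to 7.47, and neither passed a test.

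The 24-month and 12-month arrays were not uniform. At 24 months, arrays 2 and 3 were the highest pair for 16 of the 29 genes (55.2%), against 13.9% of all genes. The median level of the 29 genes was 3.22, 3.66, 3.67 and 3.24 on 24-month arrays 1 to 4, against 3.18, 3.01 and 3.13 at 18 months. The SD over the arrays of an age had a median over the 29 genes of 0.46 at 24 months and 0.42 at 12 months, and of 0.11 to 0.15 at the other ages. Over all genes it was 0.30 at 24 months and 0.33 at 12 months, and 0.10 to 0.18 at the other ages, so the whole array was more variable at 12 and 24 months. At 12 months array 2, which was hybridised on another slide and scanned in another session than arrays 3 and 4, was the highest for 21 of 29 genes (72.4%), against 46.3% of all genes. A further fit left out 12-month array 2 and 24-month arrays 3 and 4 together, and kept 24-month array 2 of the high pair. Leaving out the array that was highest for most of the 29 genes by itself lowers their 12-month mean. The 12-month arrays left shared no slide, scan day or session with the 9-month arrays, so age and batch cannot be told apart in this fit. At 12 against 9 months 12 of the 29 (41.4%) were then lower, when 10.2% of all genes were called lower. Stard4 was lost, and Acat2, Mvd, Lss, Cyp51 and Insig1 were added. At 24 against 18 months 12 were higher (41.4%) and 2 lower, when 17.5% of all genes were called higher and 18.1% lower. Mvk was lost there, and Sqle and Lcat were added.

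Markers of several other cell types were higher at 24 than at 18 months, and those of T and NK cells peaked on the same pair of arrays. The summed level (not log) of 8 T and NK cell markers reached 28.8 on 24-month array 2 and 28.7 on array 3, with 11.4 on array 1 and 11.7 on array 4. It was 4.41 to 4.94 at 18 months, and 7 of the 8 rose at 24 against 18 months, when 10.8% of all genes did. Of 10 Kupffer cell and macrophage markers 7 rose in that step. The sum of the 9 with a value on every array was 334, 317, 351 and 265 on 24-month arrays 1 to 4 and 186 to 239 at 18 months. Of 5 neutrophil markers 0 rose and 1 fell in that step. The neutrophil sums were 11.5, 2.98, 50.3 and 1.34 on 24-month arrays 1 to 4 and 1.18 to 3.14 at 18 months. The markers of bile duct cells shared part of the outline of the enzymes. Of 5 tested, 4 rose at 24 against 18 months (median difference 1.26), and 1 fell at 12 against 9 months (median -0.85). At 9 against 3 months 1 rose, and the median was -0.07. Of the 6 listed, 3 lay above background on every array. The sums of the 5 were 2.16 to 2.63 at 3 months, 2.46 to 4.12 at 9 months and 1.44 to 2.02 at 12 months. They were 1.71 to 2.01 at 18 months and 2.99 to 4.42 at 24 months. All 10 hepatocyte markers lay above background on every array, with sums of 3050 to 4570 at 24 months and 4330 to 4550 at 18 months, and none passed in that step. Their part in the differences of the cholesterol genes was not tested. Of 6 adrenal and gonadal markers listed, Cyp11a1, Cyp11b1 and Nr5a1 were above background on no array. The 2 tested, Cyp17a1 and Hsd3b1, were above background on every array and both passed the F test. Of these 2, 1 rose at 12 against 9 months, against 3.17% of all genes, and 0 passed at 24 against 18 months.

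Few genes that neighbour the pathway were called at 24 against 18 or at 12 against 9 months. Of 26 other tested genes of sterol and isoprenoid metabolism, 2 rose and 0 fell at 24 against 18 months. Of all genes 10.8% were then called higher and 15% lower. At 12 against 9 months 0 of the 26 rose and 2 fell, against 3.17% and 3.1% of all genes. Cyb5r3, the reductase that feeds electrons to several sterol oxidases, had 4.67, 4.81 and 4.82 at 3 months, 5.39, 5.55 and 5.34 at 9 months, 4.54, 4.15 and 4.62 at 12 months, 4.29, 4.48 and 4.19 at 18 months, and 4.71, 4.83, 4.29 and 4.83 at 24 months. It was highest on the 9-month arrays, with a difference of -0.99 ± 0.17 for 12 minus 9 months (SE, adjusted p = 0.00575, limma). Mylip, the ubiquitin ligase that marks lipoprotein receptors for degradation, averaged -1.31 ± 0.13 at 9 months and -0.33 ± 0.16 at 3 months (SD, n = 3 each), a difference of -0.98 (adjusted p = 0.0111). Lrpap1, a chaperone of lipoprotein receptors, averaged 2.58 ± 0.15 at 24 months (n = 4) and 3.17 ± 0.03 at 3 months (n = 3), a difference of -0.59 (adjusted p = 0.00378). Neither Mylip nor Lrpap1 was called at 12 against 9 or at 24 against 18 months.

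The fatty acid synthesis genes, mainly targets of the related factor SREBP-1c, were in part lower after 9 months and were not called higher at 24 months. Of 18 tested, 6 rose at 9 against 3 months (median difference 1.37), against 1.94% of all genes. At 12 against 9 months 5 fell (median -1.10), against 3.1% of all genes. At 24 against 18 months 0 rose and 1 fell (median -0.52), against 10.8% and 15% of all genes. The summed level (not log) of the 18 was 109, 278, 175 and 934 on 24-month arrays 1 to 4, highest on array 4. At 18 months it was 593, 588 and 347. Me1, which supplies NADPH to fatty acid synthesis, averaged 2.34 ± 0.25 at 12 months and 3.67 ± 0.21 at 9 months (SD, n = 3 each), with a difference of -1.34 (adjusted p = 0.00361, limma). Whether the responses of the 2 groups of genes differed was not tested.

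The arrays carried no saturated spots, and 52.5% to 65.2% of their probes lay well above background. With 3 or 4 arrays an age, their number sets the precision. Of the 29 genes, 9 had several tested probes, and 0 of these had probes that passed in opposite directions. Scan session 1 held all arrays of 3, 9 and 24 months and 12-month array 2. Session 2 held 12-month arrays 3 and 4 and all arrays of 18 months. The sessions are years of scanning, and session 1 covered scan days 1 and 3, with the 24-month arrays on day 3. Slide 1 held the 3-month arrays with 9-month array 2, so part of the 9 against 3 months comparison lies within a slide. There 7 of the 29 (24.1%) were called higher, against 8.16% of all genes, with a difference of 0.81 for Nsdhl (adjusted p = 0.0222, limma); the lone 9-month array is assumed to vary like the 3-month arrays.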

How the data were processed

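Liver RNA of 16 samples was hybridised to one-colour Agilent rat arrays. The intensity values were extracted with Agilent Feature Extraction 10.7.3.1, per the file headers, which also record that the processed signal is background-subtracted within the array; the spot flags come from the same files. The labels' protocols name a labelling kit for microRNA, while the probes are those of an mRNA array. Log2 values deposited by the authors served as an alternative.

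The log2 of each processed signal minus the array's 75th percentile was used. Control spots and outlier flags were left out (43 missing values). Of 41012 probes, 25697 were kept, each flagged as well above background on every array of 1 or more ages. Names of 18028 probes were updated by accession and 22984 kept the array's name. A gene is its kept probe with the highest mean. A mean per age was fitted over all 21457 genes with limma 3.58.1 (R 4.3.3 with the data.table package, version 1.17.8), with two-sided moderated tests, Benjamini-Hochberg adjustment over all genes and a threshold of 0.05. Intervals are 95%. The scripts were tested on simulated data. Arrays were grouped by the age in the labels, which give no other factor. The arrays lay on 7 slides scanned on 3 days. The 2 sessions are the years of the scan dates.

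The genes and lists described were chosen with earlier results of these data known. Values on every array are given for members called in any comparison and for Srebf2, Scap, Insig1 and Insig2, and other members by range. Other genes are named from the context lists, up to 4 per list with the smallest F test adjusted p, plus defining markers. Promoters come from a RefSeq table on GRCr8 and were used for sequence only. Alternatives were quantile normalization, normexp with an offset of 50, the authors' table, other filters on dim probes, averaging the probes of a gene, blocks for slide, session and replicate, and leaving out arrays. Fits within a slide or session were chosen after seeing the data. Figures were drawn with matplotlib 3.10.9.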

Additional observations from a re-analysis of the deposited data

Results flagged for a closer look

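Fdps on 24-month array 1 stood apart from the other arrays of its age, at 5.27 on the log2 scale against 6.14 to 6.31 on the other 3 arrays. The gap to the nearest of them was 0.84 of the range of the 4 arrays. Some such gaps are found by chance when many genes are looked through, and no other of the 29 genes showed one at 24 months, the single age with enough arrays for this check.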

How the results depend on the processing

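Of 27 calls of single genes, 27 were kept with the filter for all 16 arrays and with the mean of a gene's probes, 24 without the 3 arrays 12-month 2 and 24-month 3 and 4, 22 with quantile normalization, 21 in the authors' table, 17 with no filter, 9 with normexp, 8 with slide as a random block and 10 with session as a block. The cause of these losses was not tested. Calls among the 29 genes were 4, 2, 8, 0 and 13 for 24 against 3, 9 against 3, 12 against 9, 18 against 12 and 24 against 18 months, and 13 for any age. For 9 against 3 months there was 1 with quantile normalization, 1 in the authors' table, 1 with no filter, 0 with normexp, 5 without the 3 arrays and 7 within slide 1. For 12 against 9 months there were 5 with normexp, 5 in the authors' table, 4 with no filter and 5 within slide 2. For 24 against 3 months there were 1 with normexp, 2 with no filter, 0 with the slide block and 1 within session 1. For 24 against 18 months there were 4 with normexp, 0 with the slide block and 1 with the session block. For any age there were 8 with normexp and 7 with either block. With the session block the differences of 24 minus 18 months were -0.53 for Mvd, -0.021 for Dhcr7 and -0.065 for Scap, opposite in sign to the values without it.

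Leaving out 1 array gave 1 to 4 calls for 24 against 3 months, 1 for 9 against 3, 3 to 10 for 12 against 9, 0 for 18 against 12, 9 to 17 for 24 against 18 and 10 to 18 for any age. Over all genes the counts in that order of comparisons were 2858, 1102, 1346, 299, 5541 and 8032, and leaving out 1 array gave 1569 to 3358, 482 to 646, 483 to 2142, 82 to 724, 3889 to 6181 and 6260 to 9738. With normexp they were 482, 339, 166, 37, 973 and 1614. With the slide block they were 311, 2051, 4818, 0, 974 and 4823. With the session block there were 4360 for 12 against 9 months, 174 for 18 against 12 and 2800 for 24 against 18. Without the 3 arrays there were 5107 for 24 against 3, 3255 for 9 against 3, 3990 for 12 against 9, 487 for 18 against 12 and 12296 for any age. With no filter there were 684 for 12 against 9 months, and with the filter for all 16 arrays 1901 for 24 against 3. Within batches there were 3683 for 9 against 3 months in slide 1, 3106 for 12 against 9 in slide 2, 2798 for 12 against 9 in session 1 and 179 for 18 against 12 in session 2.

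Samples of different ages share replicate numbers, but same-numbered arrays did not deviate together. Over 25 such pairs the correlation of their deviations ran from -0.3 to 0.119, and 1 of 16 arrays was closest to an array of its own number. With the replicate block the 29 genes gave 3, 1, 3, 0 and 10 calls in the 5 comparisons and 10 for any age, and all genes gave 364 for 12 against 9 months and 98 for 18 against 12.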
